A study of Rattus norvegicus with 12 samples.

Results

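Messenger RNA of genes for postsynaptic scaffolds and synaptic adhesion proteins was compared between groups of cultured rat hippocampal neurons. The cultures had been treated for 48 h to block network activity, to raise it, or with vehicle alone. The set holds 38 genes chosen for the place of their protein at the synapse, with earlier results of these data known. Shares of members are therefore set beside those of all names as a description only. A probe was taken as a member where its gene name on the array, read without regard to case and without the endings "_predicted" or "_mapped", was 1 of the 38 symbols. In this way 33 of the 38 genes were found, by 49 of the 41012 probes, among 35732 distinct names on the array. The other 5 symbols, Dlg1, Dlg2, Dlg3, Dlg4 and Magi1, did not occur as gene names on the array.

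The cultures were high-density dissociated hippocampal neurons from E18.5 Sprague-Dawley rat embryos, treated from 10 to 13 days in vitro. CTL cultures received vehicle, named in the sample labels as 0.1% DMSO. TTX cultures received tetrodotoxin (0.5 to 1 μM), which blocks voltage-gated Na+ channels and thereby action potentials. BC cultures received bicuculline (20 μM), which blocks GABA-A receptors. The paper recorded spontaneous firing just after application, where tetrodotoxin blocked it and bicuculline brought on burst firing. Each group had 4 RNA samples, each labelled with Cy3 and hybridized to 1 whole rat genome array, and all 3 groups share the strain, culture and treatment time. Whether the 4 samples of a group were grown as separate cultures is stated neither in the labels nor in the methods, so a p-value here reflects variation among these samples that may be technical. The RNA was of whole dishes, so fewer cells of a type and less RNA per cell cannot be told apart in any value given here.

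Excitatory synapses carry on their receiving side a dense protein meshwork, the postsynaptic density. In it, scaffold proteins of the MAGUK family hold glutamate receptors, DLGAP proteins link the MAGUKs to SHANK proteins, and SHANK and HOMER proteins form a deeper layer that reaches the actin of the dendritic spine. Neuroligins on the receiving side bind neurexins on the axon across the cleft, and gephyrin is the matching scaffold of inhibitory synapses. LIN7 proteins are small adaptors that join CASK in a complex found on both sides of the synapse.

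The 12 arrays lay on 4 slides that each held 1 array of every group, and all were scanned on the same day. Between 74.1% and 78.1% of the probes on an array were well above background, and all 49 member probes were so on every array, with none saturated. In deviations from the group means, arrays of different groups on the same pair of slides (slides 1 and 3, or 2 and 4) correlated at 0.20 to 0.41 over 40818 probes, and those on the other pair at −0.39 to −0.20. Differences within each slide are therefore given for the called genes.

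Few of the 33 genes passed the test. With TTX, 2 genes fell (Akap5 and Lin7b) and none rose, while 6 lay higher and 8 lower at an unadjusted limma p under 0.05 (42.4% of the members, beside 21.5% of all names). With BC, 3 rose (Lin7a, Dlgap3 and Dlgap2) and 2 fell (Ppp1r9a and Lin7b), and at the unadjusted p 8 lay higher and 3 lower (33.3%, beside 19.0%). A gene is given by its brightest probe, its level is the quantile-normalized log2 signal of that probe, and a gene was called where limma's Benjamini-Hochberg FDR over all probes was under 0.05 and the change was at least 1.5-fold in either direction.

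The 2 calls with TTX were 6.06% of the measured members, against 4.19% of all names on the array, of which 1.48% rose and 2.7% fell. With BC the 5 calls were 15.2% of the members, against 3.6% of all names, of which 2.14% rose and 1.47% fell. Among names that cleared background throughout at least 1 group, as all members did, 5.34% were called with TTX and 4.55% with BC. Of the 35729 names tested with TTX, 26272 did so, and the shares of all names given here and below include the dimmer rest. After averaging the arrays of each slide pair, both TTX calls were kept (limma adjusted p = 0.0457 for each) and all 5 BC calls were lost (limma adjusted p of 0.0704 to 0.132). The median log2 fold change of the members was 0.01 with TTX and 0.03 with BC, beside 0.01 and −0.01 over all names. For 23 of the 33 genes with TTX and for 26 with BC, the whole 95% interval of the change lay inside the fold thresholds. Without the fold threshold, 7 members passed the FDR with TTX (2 higher and 5 lower, where 9.72% of all names passed) and 7 with BC (5 higher and 2 lower, where 8.09% passed).

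**Figure D1:**
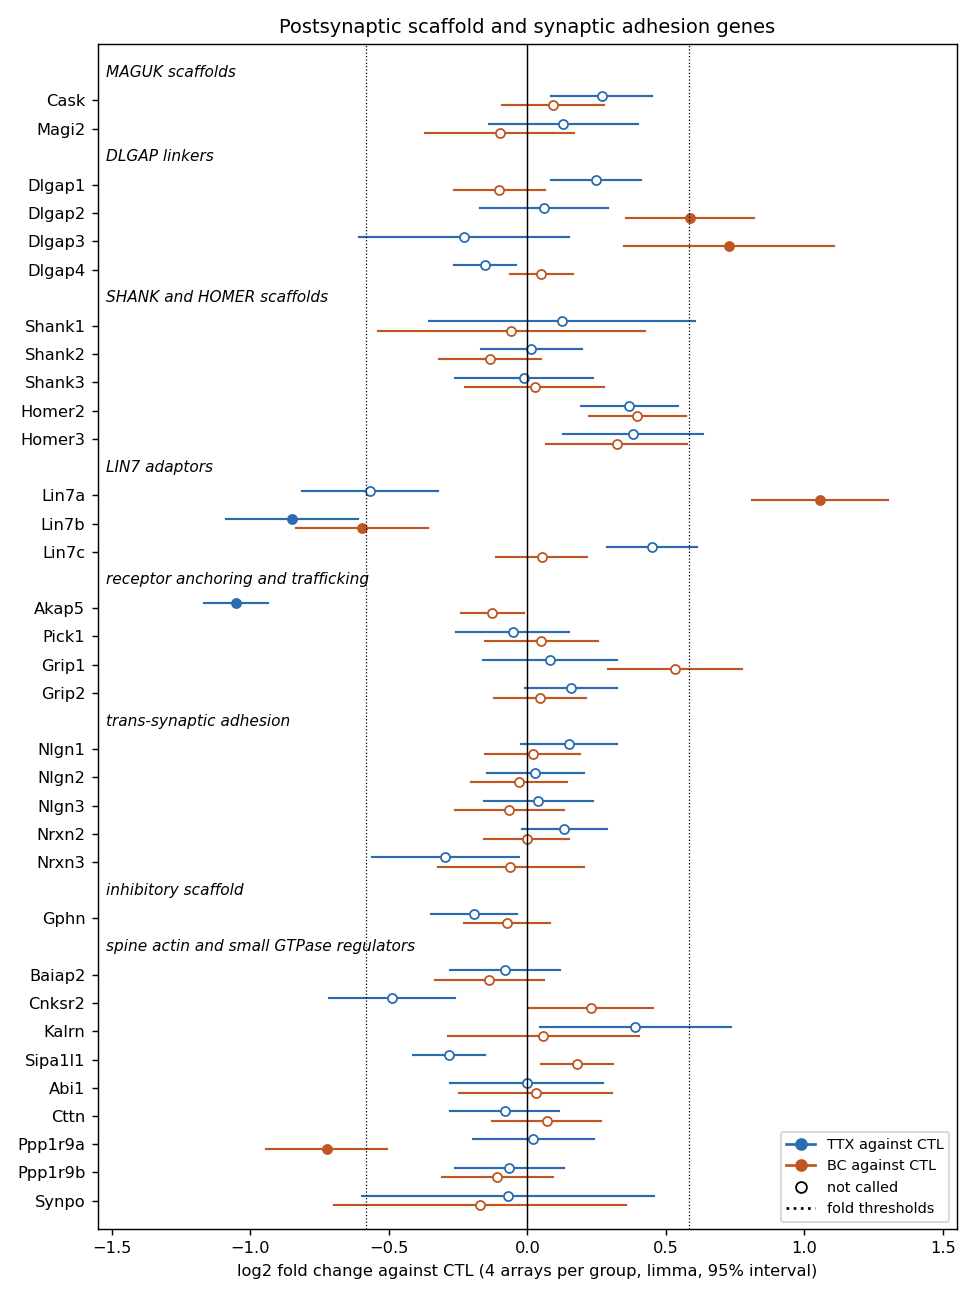
Log2 fold change of the 33 genes against CTL, by role, for TTX (blue) and BC (orange), with limma's 95% interval over 4 arrays per group. Filled points are called and dotted lines are the fold thresholds; Akap5 and Lin7b are the filled TTX points, and Lin7a, Lin7b, Dlgap2, Dlgap3 and Ppp1r9a the filled BC points.

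The 3 LIN7 adaptors differed from each other in their response. The genes encode closely related proteins, so the probe sequences are shown first, since a shared sequence would let 1 transcript light several probes. The first 30 of the 60 bases of each probe, 5′ to 3′ in the sense of the transcript, are as follows, with the build of the array design (rn4).
Lin7a (chr7:46080790-46080849, plus strand): cctgggttttaacgtgatgggaggaaagga
Lin7b (chr1:95840035-95840094, minus strand): cccatcccagggtcgtggaactaccgaaga
Lin7c (chr3:95334364-95334423, plus strand): gaggcaaagaacaaaactcaccaatctata
Over the whole 60 bases, the most matching bases in any ungapped alignment were 21 for Lin7a and Lin7b, 31 for Lin7a and Lin7c and 19 for Lin7b and Lin7c. The place of the probes relative to exons is not given here, since no annotation of rn4 was used.

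Lin7a rose with BC and was lower with TTX without reaching the fold threshold. Its normalized log2 signal was 9.49, 9.35, 9.78 and 9.42 on the CTL arrays, 8.91, 8.79, 9.09 and 8.97 on the TTX arrays, and 10.37, 10.53, 10.72 and 10.65 on the BC arrays. No 2 groups overlapped, with TTX lowest and BC highest. The log2 fold change with BC was 1.06 (SE 0.111, 2.08-fold, limma adjusted p = 0.000265, n = 4 arrays per group), and within the slides it was 1.24, 0.75, 1.295 and 0.95. With TTX it was −0.57 (SE 0.111, 0.675-fold, limma adjusted p = 0.00872), which passed the FDR but not the fold threshold. It was called with TTX when CTL replicate 2 (−0.62), CTL replicate 4 (−0.60) or TTX replicate 3 (−0.62) was left out. By QPCR the paper reports higher mRNA of Lin7a with BC and lower mRNA with TTX. Of 15 interneuron markers 9 were lower and 1 higher with TTX, and with BC 2 were higher and 1 lower. Their part in this result was not tested.

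Lin7b fell under both treatments, each set against the same CTL arrays, so the falls are not independent of each other. Its level was 13.45, 13.27, 13.24 and 13.07 on the CTL arrays, 12.55, 12.51, 12.23 and 12.34 on the TTX arrays, and 12.66, 12.44, 12.79 and 12.76 on the BC arrays. Every CTL array lay above every treated array, while TTX and BC overlapped. With TTX the log2 fold change was −0.85 (SE 0.108, 0.555-fold, limma adjusted p = 0.000706), and within the slides it was −0.94, −0.90, −0.72 and −0.84. With BC it was −0.60 (SE 0.108, 0.662-fold, limma adjusted p = 0.00647), close to the fold threshold. That BC call was lost without CTL replicate 1 (−0.53), without BC replicate 2 (−0.52) and under 4 other ways of background correction or scaling, in which the value was −0.58 to −0.55. With TTX the interneuron markers were mostly lower too, a part that was not tested.

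Lin7c was not called in any comparison. Its level was 7.23, 7.19, 7.16 and 7.04 on the CTL arrays, 7.61, 7.58, 7.64 and 7.59 on the TTX arrays, and 7.04, 7.15, 7.36 and 7.27 on the BC arrays. The TTX arrays lay above all others, whereas BC and CTL overlapped. The log2 fold change was 0.45 with TTX (SE 0.0739, limma adjusted p = 0.00334), which passed the FDR and not the fold threshold, and 0.05 with BC (SE 0.0739, limma adjusted p = 0.827).

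The LIN7 genes were also set against each other as ratios of 2 probes on the same array, from the normalized values. From CTL to BC the Lin7a over Lin7b ratio rose by 1.65 on the log2 scale, the Lin7a over Lin7c ratio rose by 1.01, and the Lin7b over Lin7c ratio fell by 0.648. From CTL to TTX the Lin7a over Lin7c ratio fell by 1.02 and the Lin7b over Lin7c ratio fell by 1.301. In these 5 cases the arrays of the groups did not overlap, with an exact two-sided permutation p of 0.0286 (0.0343 after Benjamini-Hochberg adjustment over the 6 comparisons tested, which were chosen after the values were seen), the smallest that 4 arrays against 4 allow. Groups without overlap always give this value. The permutation moved arrays freely between groups and took no account of the slide pairs, so its p-value restates the lack of overlap only. The Lin7a over Lin7b ratio with TTX differed from CTL by 0.28, within the spread of the arrays (exact permutation p = 0.143, adjusted 0.143). In the log2 signals before normalization between arrays, where scaling of an array cancels, the same 5 changes were 1.63, 1.02, −0.61, −1.02 and −1.296, again without overlap.

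**Figure D2:**
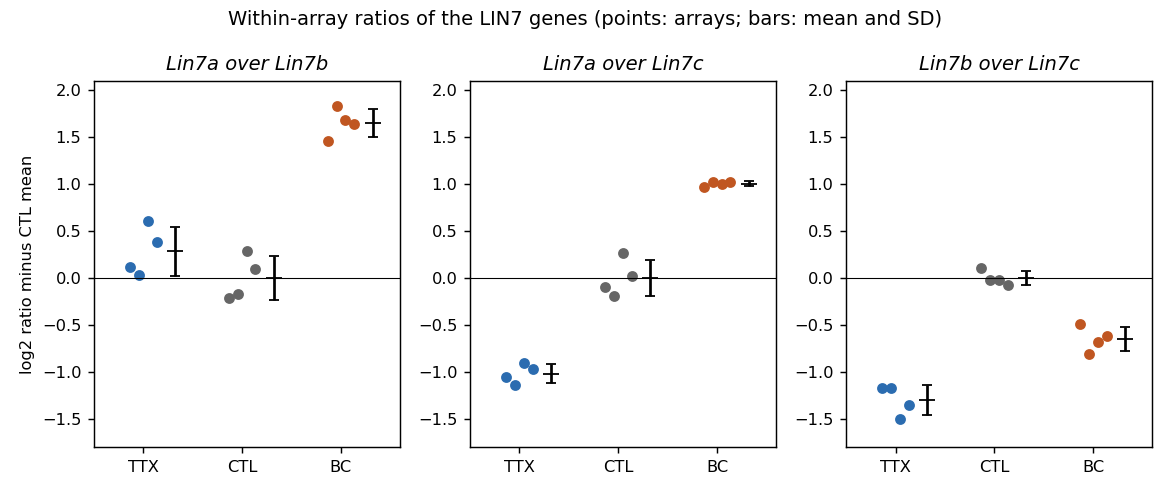
Log2 ratio of each pair of LIN7 genes on each array, minus the CTL mean, with points for arrays and bars for the mean and SD of 4 arrays. Lin7a over Lin7b rose by 1.65 with BC, and Lin7a over Lin7c moved down by 1.02 with TTX and up by 1.01 with BC.

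The promoters of the LIN7 genes are shown because the 3 genes responded differently. They are the 250 bases before the annotated start, 5′ to 3′ on the strand of the gene, from RefSeq on the GRCr8 assembly, with capitals marking the letters TGACG or their reverse complement CGTCA, the short form of the element bound by the activity-regulated factor CREB.
Lin7a (chr7:44473318-44473567, plus strand): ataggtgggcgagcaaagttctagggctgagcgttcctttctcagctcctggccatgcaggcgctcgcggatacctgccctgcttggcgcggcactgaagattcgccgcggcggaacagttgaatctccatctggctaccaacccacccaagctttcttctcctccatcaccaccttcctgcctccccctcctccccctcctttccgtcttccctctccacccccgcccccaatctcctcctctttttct
Lin7b (chr1:104986079-104986328, minus strand): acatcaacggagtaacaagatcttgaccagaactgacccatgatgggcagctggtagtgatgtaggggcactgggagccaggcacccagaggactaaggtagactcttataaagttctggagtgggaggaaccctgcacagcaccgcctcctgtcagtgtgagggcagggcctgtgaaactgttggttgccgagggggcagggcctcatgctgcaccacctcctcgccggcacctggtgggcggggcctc
Lin7c (chr3:116861134-116861383, plus strand): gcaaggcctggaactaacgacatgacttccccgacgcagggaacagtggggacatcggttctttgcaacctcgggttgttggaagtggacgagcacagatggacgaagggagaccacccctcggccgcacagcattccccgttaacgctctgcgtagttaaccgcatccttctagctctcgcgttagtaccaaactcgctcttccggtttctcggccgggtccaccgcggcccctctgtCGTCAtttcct
GC content was 60.4% for Lin7a, 60.0% for Lin7b and 58.8% for Lin7c, beside a median of 51.2% over 33469 promoters (quartiles 44.0 and 60.0). The number of CpG dinucleotides was 13, 6 and 22 in the same order, beside a median of 5. Of the 27 measured members with a promoter in the table, 3 held TGACG on either strand (Cttn, Lin7c and Sipa1l1), or 11.1% beside 18.2% of all promoters. None of the 27 held TGACGTCA (1.59% of all), GCGTGGGCG (0.478%) or CACGTG (5.59%) on either strand in this window. These matches describe letters only.

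Akap5 had the largest change of the 33 genes with TTX. It encodes the anchoring protein AKAP150, which holds protein kinase A, protein kinase C and calcineurin beside AMPA receptors and Ca2+ channels. The first 30 bases of its probe (chr6:98928387-98928446 of rn4, plus strand) are shown as the measured target.
Akap5: tcgtcaagaatgctatcgagttgtctgtag
Its level was 12.28, 12.16, 12.32 and 12.28 on the CTL arrays, 11.16, 11.24, 11.19 and 11.25 on the TTX arrays, and 12.14, 12.15, 12.14 and 12.11 on the BC arrays. All 4 TTX arrays lay below all others. The log2 fold change with TTX was −1.05 (SE 0.0517, 0.482-fold, limma adjusted p = 2.19e-06), and the differences within slides, −1.04, −1.08, −1.004 and −1.09, were nearly equal. With BC it was −0.13 (SE 0.0517, limma adjusted p = 0.204), with the 95% interval from −0.24 to −0.01. The TTX call was kept under all 26 alternatives tried, with a log2 fold change of −1.09 to −1.03. With TTX 9 of 15 interneuron markers were also lower, and their part was not tested.

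The other anchoring and trafficking genes of the set were Pick1, Grip1 and Grip2, whose proteins bind the tails of AMPA receptors through PDZ domains. None of them was called against CTL by its brightest probe. Pick1 changed by −0.05 with TTX and 0.05 with BC, and Grip2 by 0.16 and 0.04, all with intervals inside the fold thresholds.

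Grip1 had 2 probes that differed in their TTX values. The brighter probe (chr7:59301594-59304950 of rn4, plus strand, its 60 bases spread over 3357 bases of the genome) and the other probe (chr7:59306020-59306079, plus strand) begin as follows.
Grip1, brighter probe: tgacaggctcttacaggttaaccacgtccg
Grip1, other probe: aatgagattcactttctgggtaggcaaaca
The brighter probe read 10.99, 10.97, 10.60 and 11.04 on the CTL arrays, 11.07, 11.04, 10.84 and 10.97 on the TTX arrays, and 11.32, 11.30, 11.51 and 11.60 on the BC arrays. The other probe read 10.08, 10.22, 10.12 and 9.90 in CTL, 9.68, 9.60, 9.61 and 9.70 in TTX, and 10.45, 10.49, 10.76 and 10.89 in BC. With BC both probes lay above all CTL arrays, by 0.53 (SE 0.109, limma adjusted p = 0.0126) and 0.57 (SE 0.104, limma adjusted p = 0.00704), past the FDR and short of the fold threshold. With TTX the brighter probe overlapped CTL (0.08, limma adjusted p = 0.772), whereas the other lay below all CTL arrays (−0.43, SE 0.104, limma adjusted p = 0.0252). The ratio of the brighter to the other probe on the same array was higher by 0.51 with TTX and stood at −0.03 from CTL with BC (0.50 and −0.03 before normalization). This ratio was chosen after its values were seen and was not tested.

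**Figure D3:**
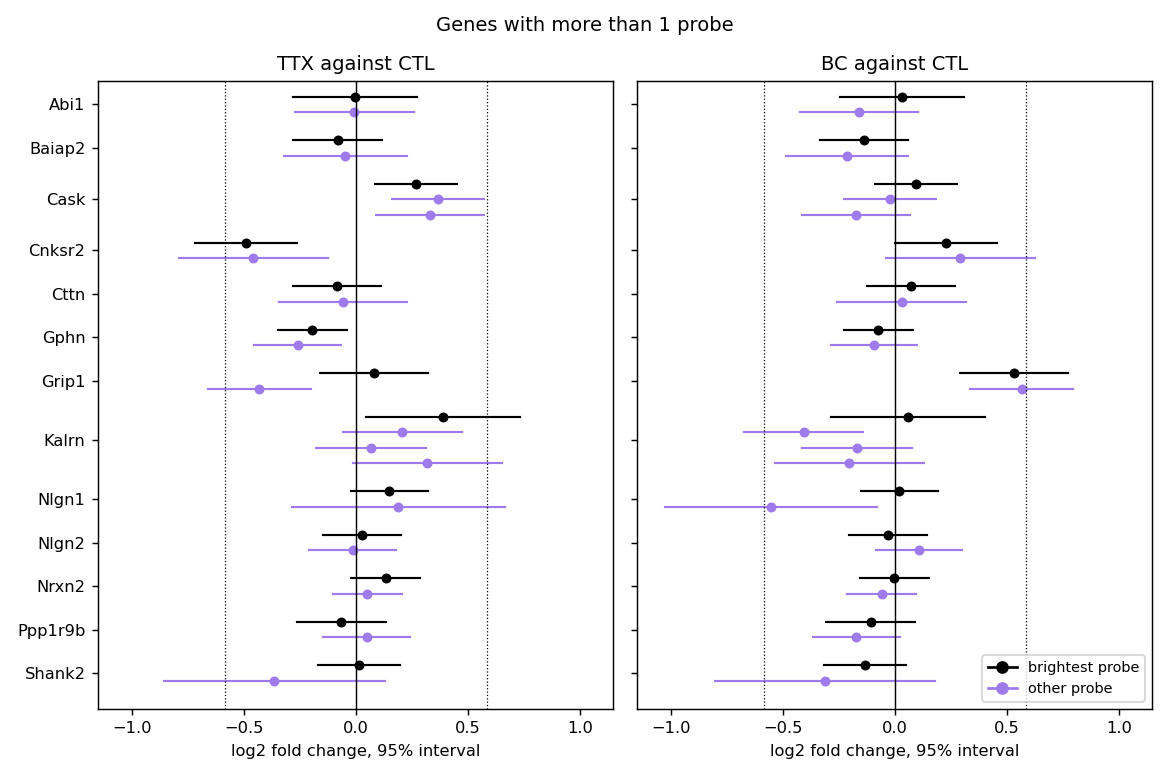
Log2 fold change against CTL of every probe of the 13 genes with more than 1 probe, with limma's 95% interval; black is the brightest probe and violet the others, and dotted lines are the fold thresholds. The 2 Grip1 probes part with TTX (0.08 and −0.43) and lie together with BC (0.53 and 0.57).

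Of the 4 DLGAP linkers, Dlgap2 and Dlgap3 rose with BC and none was called with TTX (limma, 1 higher and 1 lower at an unadjusted p under 0.05, where 21.5% of all names passed). The probe of Dlgap3 (chr5:146683890-146683949 of rn4, plus strand) and that of Dlgap2 (chr16:79619696-79628365, minus strand, its 60 bases spread over 8670 bases) begin as follows.
Dlgap3: tcctgcagctctccattgaggacgtgaccc
Dlgap2: aagcggaagaaaatgacctctccgaagaaa
Dlgap3, also called SAPAP3, had a level of 10.48, 10.87, 10.48 and 10.36 on the CTL arrays, 10.35, 10.54, 10.08 and 10.31 on the TTX arrays, and 10.91, 11.10, 11.47 and 11.63 on the BC arrays. All BC arrays lay above all CTL arrays, the lowest by a small margin over CTL replicate 2, and TTX and CTL overlapped. Its fold change with BC was 0.73 on the log2 scale (SE 0.171, 1.66-fold, limma adjusted p = 0.0245), and within the slides 0.98, 0.63, 0.76 and 0.55. It lost its call under 9 of 25 alternatives, among them leaving out CTL replicate 1 (0.71, limma adjusted p = 0.0683), CTL replicate 3 (0.71, 0.0575), CTL replicate 4 (0.67, 0.0697), BC replicate 3 (0.66, 0.0764) or BC replicate 4 (0.61, 0.0635). The others were averaging, a random block for the group on a slide pair (limma adjusted p = 0.0819), the replicate block (limma adjusted p = 0.0682) and a fit of BC and CTL alone (limma adjusted p = 0.0674). Its means had the order TTX, CTL, BC of the summed interneuron markers, whose part was not tested.

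Dlgap2 stood at the fold threshold. Its level was 8.15, 7.75, 7.996 and 8.09 on the CTL arrays, 8.05, 7.93, 8.08 and 8.16 on the TTX arrays, and 8.38, 8.54, 8.68 and 8.73 on the BC arrays. The BC arrays lay above all others, and TTX and CTL overlapped. With BC the log2 fold change was 0.59 (SE 0.104, 1.502-fold, limma adjusted p = 0.00596), and within the slides it was 0.53, 0.54, 0.98 and 0.29. The call was lost under 9 of 25 alternatives, including leaving out CTL replicate 2 (0.50), BC replicate 3 (0.55), BC replicate 4 (0.54) or TTX replicate 1 (0.585, just under the fold threshold), with the direction kept in each. Dlgap1 and Dlgap4 were not called: Dlgap1 changed by 0.25 with TTX and −0.10 with BC, and Dlgap4 by −0.15 and 0.05.

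Ppp1r9a fell with BC and lay near its CTL level with TTX. It encodes neurabin, which binds actin filaments and brings protein phosphatase 1 to spines. The first 30 bases of its probe (chr4:29926587-29926646 of rn4, plus strand) were as follows.
Ppp1r9a: gggcctcagtctggaccagtatgtgtctga
Its level was 11.07, 11.02, 10.87 and 11.04 on the CTL arrays, 11.18, 11.18, 10.74 and 10.99 on the TTX arrays, and 10.27, 10.35, 10.19 and 10.29 on the BC arrays. Every BC array lay below every other array. With BC the log2 fold change was −0.72 (SE 0.0984, 0.605-fold, limma adjusted p = 0.00122), and within the slides −0.88, −0.53, −0.73 and −0.76. With TTX it was 0.02 (SE 0.0984, limma adjusted p = 0.968, 95% interval −0.20 to 0.24). Its relative Ppp1r9b, which encodes spinophilin, changed by −0.11 with BC (95% interval −0.31 to 0.09) and was not called. The summed glutamatergic markers, in which the bright Neurod2 (−0.72 with BC) weighs heavily, were lowest with BC as well. They were highest with TTX, and their part was not tested.

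**Figure D4:**
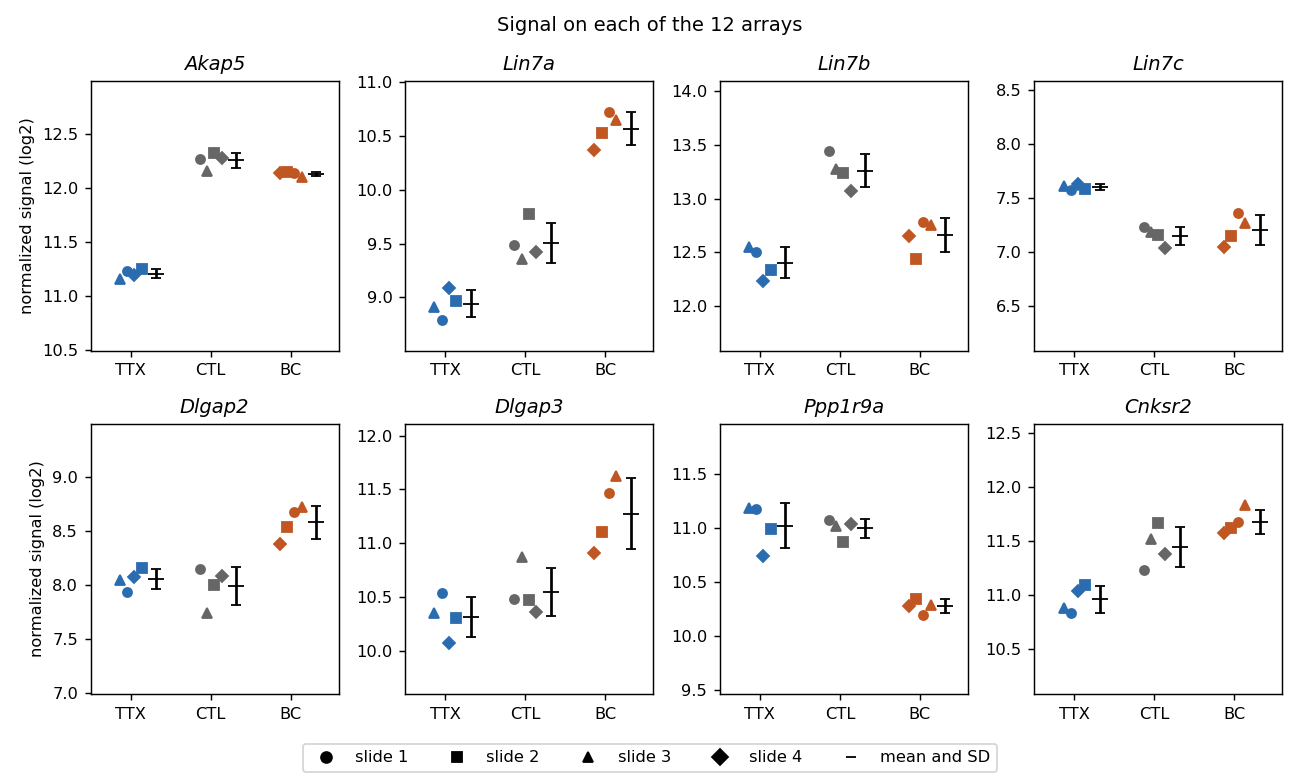
Normalized log2 signal of the 7 called genes and Lin7c on each of the 12 arrays, with the symbol giving the slide and the bar the mean and SD of 4 arrays; every panel spans the same height in log2 units. The TTX arrays of Akap5 lie at 11.16 to 11.25, below all others, and the BC arrays of Ppp1r9a at 10.19 to 10.35.

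Of the remaining spine actin and small GTPase regulators, none was called against CTL. Cnksr2, which encodes the Ras pathway scaffold MAGUIN, differed most, with 2 probes of the same direction that begin as follows.
Cnksr2, brighter probe (chrX:58430530-58430589 of rn4, plus strand): ttttgtctggatgtctttcaaattagcttc
Cnksr2, other probe (chrX:58437250-58437309 of rn4, plus strand): caaccaagatcgaatacaaactatcgttca
The brighter probe read 11.23, 11.52, 11.67 and 11.38 on the CTL arrays, 10.88, 10.84, 11.04 and 11.09 on the TTX arrays, and 11.57, 11.63, 11.68 and 11.83 on the BC arrays. All TTX arrays lay below all CTL arrays, while BC and CTL overlapped. The log2 fold change with TTX was −0.49 (SE 0.102, limma adjusted p = 0.0124), past the FDR and short of the fold threshold, and that of the other probe was −0.46 (SE 0.15, limma adjusted p = 0.0879). With BC the values were 0.23 and 0.29, neither past the FDR. The order of its means, TTX, CTL, BC, is that of the summed interneuron markers, whose part was not tested.

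Sipa1l1, which encodes the spine RapGAP SPAR, showed a small change of narrow spread. Its log2 fold change was −0.28 with TTX (SE 0.0587, limma adjusted p = 0.0115), with no overlap of the groups, and 0.18 with BC (limma adjusted p = 0.102). Kalrn, which encodes the exchange factor kalirin, had 4 probes with TTX values of 0.07 to 0.39 and BC values of −0.41 to 0.06, none called. Baiap2, Abi1, Cttn and Synpo, whose proteins act on spine actin, changed by −0.082 to −0.003 with TTX and −0.17 to 0.07 with BC. The spread of Synpo was wide (SD 0.278 to 0.416 over 4 arrays), so that its 95% intervals, −0.60 to 0.46 with TTX and −0.70 to 0.36 with BC, reach past the lower fold threshold.

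None of the neuroligins (Nlgn1, Nlgn2, Nlgn3) or neurexins (Nrxn2, Nrxn3) was called, and at an unadjusted limma p under 0.05 they numbered 1 of 5 with TTX (Nrxn3) and 0 with BC, where 21.5% and 19.0% of all names passed. Their log2 fold changes ran from −0.30 to 0.15 with TTX and from −0.07 to 0.02 with BC, and all 5 intervals lay inside the fold thresholds in both comparisons. The lowest value was that of Nrxn3 with TTX (−0.30, SE 0.119, limma adjusted p = 0.169). Nlgn1 had a second, dimmer probe at −0.55 with BC (SE 0.215, limma adjusted p = 0.172), whereas its brighter probe was at 0.02. The BC arrays of the dimmer probe spread over an SD of 0.531.

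Of the deeper scaffold layer, the listed genes Shank1, Shank2, Shank3, Homer2 and Homer3 were called in neither comparison. Homer1 was not among the listed genes, so these results do not cover it. The paper reports lower mRNA of that gene with TTX, on its arrays and by QPCR. Shank1, Shank2 and Shank3 changed by −0.01 to 0.12 with TTX and by −0.13 to 0.03 with BC, by their brightest probes. A second, dimmer Shank2 probe was at −0.36 with TTX (SE 0.222, limma adjusted p = 0.41). With BC it was at −0.31 (limma adjusted p = 0.542). Shank1 had a wide spread (SD 0.320 in CTL), and its 95% interval with TTX ran from −0.36 to 0.61. Homer2 and Homer3 lay higher under both treatments, each set against the same CTL arrays. Homer2 differed by 0.37 with TTX (SE 0.0795, limma adjusted p = 0.0144). Its value with BC was 0.40 (limma adjusted p = 0.0111), and neither treated group overlapped CTL. Homer3 differed by 0.38 with TTX and by 0.32 with BC, at limma adjusted p of 0.064 and 0.131. The Homer2 values passed the FDR and not the fold threshold.

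Cask, the MAGUK that joins LIN7, had 3 probes that all lay above every CTL array with TTX, at 0.27, 0.37 and 0.33, and of these only the second passed the FDR (limma adjusted p = 0.0306). With BC the 3 probes were at 0.09, −0.02 and −0.17. Magi2, another MAGUK-related scaffold, changed by 0.13 with TTX and −0.10 with BC. Gphn, the gephyrin gene, was at −0.19 with TTX (SE 0.07, limma adjusted p = 0.124) and −0.07 with BC, and its second probe at −0.26 and −0.09.

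The central MAGUKs Dlg1 to Dlg4 stood on the array under the older names Dlgh1 to Dlgh4, found through their RefSeq accessions, and so lie outside the rule for members. None of their 5 probes was called in any comparison. Dlg4, which encodes PSD-95, changed by 0.09 with TTX (95% interval −0.09 to 0.27) and by −0.06 with BC (−0.24 to 0.12). The others changed by −0.19 (Dlg1), 0.08 (Dlg2) and 0.19 (Dlg3) with TTX and by 0.02, −0.03 and −0.18 with BC.

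TTX and BC share their CTL arrays, so the direct comparison of the treatments is given on its own. Of the 33 members, 5 were called (15.2%, against 10.9% of all names and 13.8% of those that cleared background), 4 lower and 1 higher in TTX than in BC, where 6.2% and 4.67% of all names were. Without the fold threshold 11 members passed the FDR, as did 23.4% of all names. Groups did not overlap for 8 genes lower and 3 higher in TTX (13.3% and 12.6% of all names). Lin7a differed by −1.62 (SE 0.111, limma adjusted p = 2.76e-06), Dlgap3 by −0.96 (SE 0.171, limma adjusted p = 0.002), Akap5 by −0.93 (SE 0.0517, limma adjusted p = 7.25e-07), and Cnksr2 by −0.72 (SE 0.102, limma adjusted p = 0.000466). Ppp1r9a differed by 0.75 (SE 0.0984, limma adjusted p = 0.000267). The arrays of TTX and BC did not overlap for any of the 5 genes. Within the slides the difference was −1.93 to −1.275 for Lin7a, −1.28 to −0.80 for Dlgap3, −0.95 to −0.90 for Akap5, −0.96 to −0.53 for Cnksr2 and 0.46 to 0.99 for Ppp1r9a. All 5 calls were kept under the alternatives tried.

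In 3 genes a dimmer probe was called between TTX and BC while the brightest was not. The other Grip1 probe differed by −0.998 (limma adjusted p = 5.34e-05) against −0.45 for the brighter one (limma adjusted p = 0.0115). A Kalrn probe differed by 0.61 (limma adjusted p = 0.00347), with the brightest at 0.33 and the remaining 2 at 0.24 and 0.52. That Kalrn probe read 8.14, 7.98, 7.68 and 7.705 on the CTL arrays, 8.15, 8.23, 7.855 and 8.10 on the TTX arrays, and 7.53, 7.30, 7.56 and 7.502 on the BC arrays, so that all BC arrays lay below all others. The dimmer Nlgn1 probe differed by 0.74 (limma adjusted p = 0.0275) against 0.13. It read 6.09, 6.22, 6.32 and 6.395 in CTL, 6.34, 6.545, 6.54 and 6.36 in TTX, and 6.23, 5.94, 4.99 and 5.65 in BC, with all TTX arrays above all BC arrays and BC replicate 3 the lowest of all.

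Across groups, the level was lowest in TTX and highest in BC for 9 of the 33 genes (27.3%, beside 22.4% of all names), and lowest in BC and highest in TTX for 8 (24.2%, beside 28.3%). CTL was lowest for 9 genes and highest for 7. Groups did not overlap for 5 genes higher and 7 lower in TTX than CTL (7.49% and 8.06% of all names), and for 6 higher and 3 lower in BC than CTL (7.58% and 6.06%).

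Other synaptic adhesion and spine genes were taken from a list of 70, also chosen with earlier results known, of which 48 were measured. With TTX 2 rose and 3 fell (10.4%, against 4.19% of all names), and with BC 1 rose and 3 fell (8.33%, against 3.6%). Mdga1, whose protein binds neuroligins and keeps neurexins from them, rose by 1.47 with TTX (SE 0.142, limma adjusted p = 0.000144) and fell by 1.12 with BC (SE 0.142, limma adjusted p = 0.000804). Its level was 8.87, 8.997, 8.27 and 8.76 on the CTL arrays, 10.25, 10.33, 10.09 and 10.10 on the TTX arrays, and 7.56, 7.46, 7.68 and 7.73 on the BC arrays, with no overlap of any groups.

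Clstn2, which encodes the adhesion protein calsyntenin-2, also moved in opposite directions. It changed by 0.72 with TTX (SE 0.124, limma adjusted p = 0.00418) and by −0.90 with BC (SE 0.124, limma adjusted p = 0.0013). Iqsec3, which encodes a gephyrin-binding exchange factor of inhibitory synapses, changed by −0.69 with TTX (limma adjusted p = 0.00128). Its change with BC was 0.80 (limma adjusted p = 0.000592). Cbln2, a secreted bridge between neurexins and postsynaptic receptors, fell with TTX (−0.85, limma adjusted p = 0.00677). The adhesion genes Flrt2 and Flrt3 were each called in 1 comparison with CTL, Flrt2 lower with TTX (−0.62, limma adjusted p = 0.0131) and Flrt3 lower with BC (−0.75, limma adjusted p = 0.000331). The median over the 48 genes was −0.02 with TTX and −0.01 with BC.

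**Figure D5:**
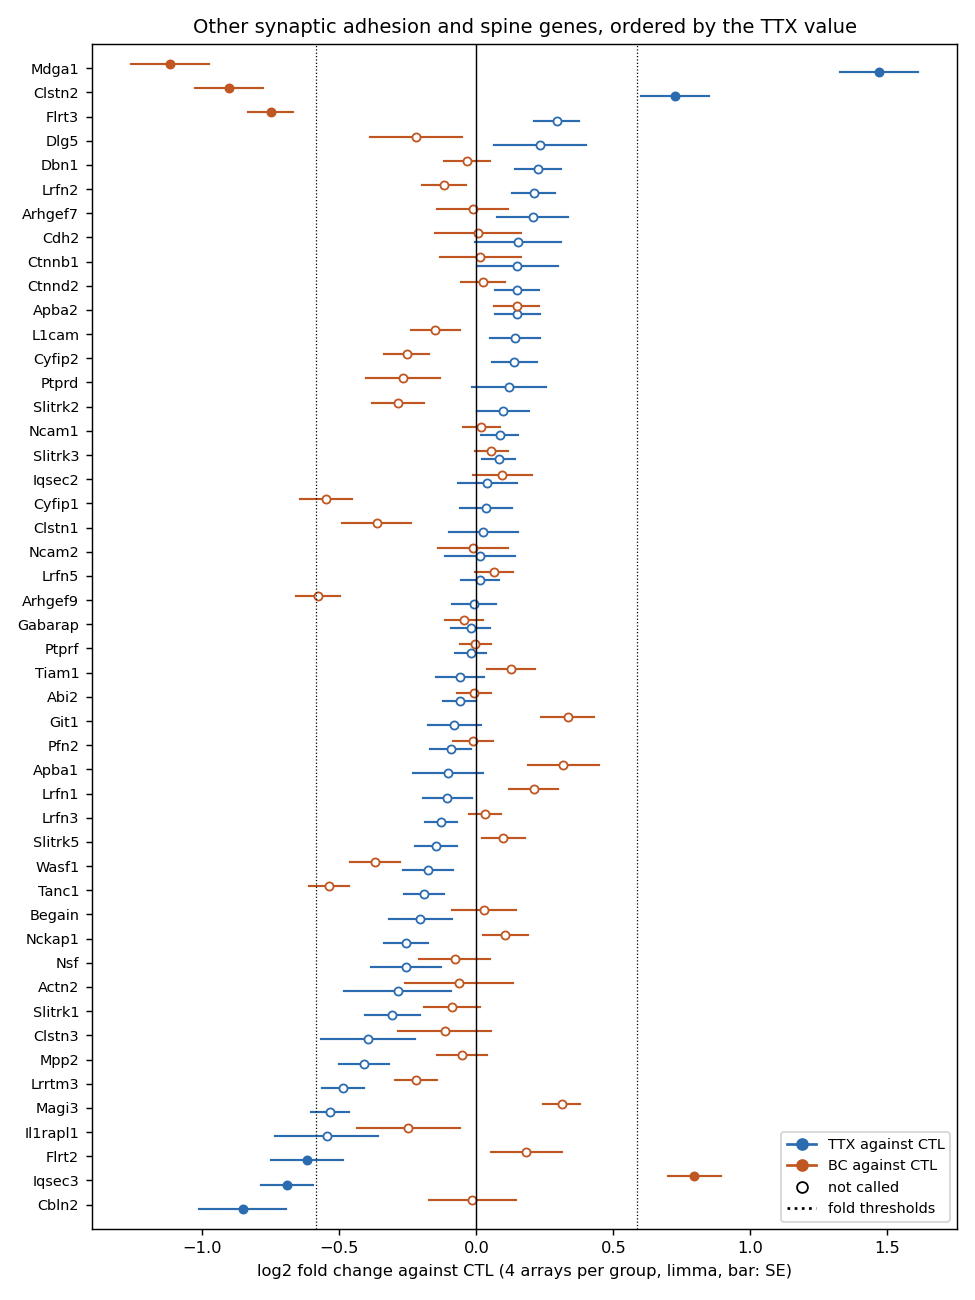
Log2 fold change against CTL of the 48 other synaptic adhesion and spine genes, ordered by the TTX value, for TTX (blue) and BC (orange), with SE bars over 4 arrays per group; filled points are called. Mdga1 lies at 1.47 with TTX and −1.12 with BC, and Iqsec3 at −0.69 and 0.80.

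Markers of cell types moved with the treatments too. Of 15 interneuron markers, 9 were lower and 1 higher with TTX, and with BC 2 were higher (Npy and Vip) and 1 lower (Calb2), with a median log2 fold change of 0.15. The log2 of their summed signal was 18.52 to 18.73 in CTL, 17.50 to 17.67 in TTX and 18.89 to 19.12 in BC, a sum in which the bright Npy (0.80 with BC) weighs heavily, whereas Sst (0.06), Slc32a1 (−0.19) and Pvalb (−0.09) were not called with BC. Gad1, the GABA-synthesizing enzyme, fell by 1.56 with TTX (limma adjusted p = 8.13e-07) and Sst, the somatostatin gene, fell by 1.68 (limma adjusted p = 4.47e-06). Of the 4 measured glutamatergic markers, 2 were higher with TTX (Neurod2 and Slc17a6) and 1 lower with BC (Neurod2), with sums of 14.41 to 14.79 in CTL, 15.09 to 15.30 in TTX and 14.05 to 14.28 in BC. The bright Neurod2 weighs heavily in these sums, and Slc17a6 (−0.23), Camk2a (−0.18) and Slc17a7 (−0.29) were not called with BC. None of 5 general neuronal markers was called against CTL, but their sum was 18.10 to 18.31 in CTL, 18.16 to 18.29 in TTX and 17.96 to 18.05 in BC, below every CTL array, with Tubb3 at −0.39 with BC (limma adjusted p = 0.0428).

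Of 10 endothelial, mural and fibroblast markers, 3 were higher with BC (Cldn5, Dcn and Lum) and 2 lower with TTX (Dcn and Lum), with sums of 13.55 to 13.86 in CTL, 13.10 to 13.31 in TTX and 14.25 to 14.68 in BC. The bright Dcn and Lum weigh heavily in these sums. The BC sums also hold Col1a2 at 12.45 in replicate 2, with the other BC arrays at 8.06 to 8.26. Cldn5 was well above background on 2 of the 4 CTL arrays, on all BC arrays and on no TTX array. The order TTX, CTL, BC of the interneuron and of these sums is that of 9 of the 33 members (27.3%, beside 22.4% of all names). These were Lin7a, Dlgap3, Cnksr2, Sipa1l1, Dlgap4, Cttn, Pick1, Shank3 and Abi1. Among them Abi1 (−0.003 with TTX and 0.03 with BC) and Shank3 (−0.01 and 0.03) hardly moved. Of 6 oligodendrocyte-lineage markers, 1 was lower with TTX (Pdgfra) and none was called with BC. None of 7 astrocyte and 7 microglial markers was called against CTL. Of the microglial ones, Aif1 and Itgam were not well above background on any array, and Cx3cr1 cleared it on 1 TTX array only. The part of these markers in the results for the synaptic genes was not tested.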

How the data were processed

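The authors deposited scanner intensities per spot, from which Feature Extraction 9.5.1.1 had subtracted background and a spatial trend within each array, with no normalization between arrays. They also deposited a table of quantile-normalized log2 values (column medians 7.372 to 7.378, with 1131 empty values for BC replicate 2), which ranked as the median signal with no background subtracted and was used as an alternative. The methods name quantile normalization and limma.

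Processed intensities were taken to log2, outlier spots by the software's own flags (13 to 40 on an array) were dropped, and the 12 arrays were quantile-normalized. A mean for each group was fitted with limma 3.58.1 and eBayes (R 4.3.3), and Benjamini-Hochberg adjustment ran over all probes. The thresholds are those of the methods. No dim probes were removed. A gene was its brightest probe over the 12 arrays. Exact permutation tests used scipy 1.17.1, and other steps data.table (version 1.17.8), Python 3.11.15, pandas 2.3.3, numpy 2.4.6 and matplotlib 3.10.9. The fit was tested on simulated data with known changes and independent noise on every array. Those data lack the correlation by slide pair, so its effect on the calls was not covered by that test. The number of arrays limits the precision.

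Groups were taken from the sample labels. The labels name DMSO as the vehicle, whereas the study's text on the arrays names water, and the labelled samples are taken as the vehicle control. The members and lists were chosen with earlier results of these data known. Values by array are given for every member called in any comparison and for members with a further probe whose call differed. Other members are given by role, those genes of the wider synaptic list called against CTL are named, and markers are named where their list moved. Lin7c was shown to complete its family.

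The replicate numbers of the labels were examined for pairing. With group means taken out, TTX and CTL arrays sharing a number had correlations of 0.28 to 0.38. These pairs are themselves part of the 0.20 to 0.41 of arrays of different groups on the same pair of slides. Lying inside that range was therefore fixed in advance and cannot show whether the numbers mark a pairing. The main fit has no pairing, and the number was used as a block among the alternatives. For BC and CTL the correlations were −0.35 to −0.24, and for TTX and BC they were −0.38 to −0.28. Same-numbered TTX and CTL arrays lay on the same pair of slides, and 2 of the 12 arrays correlated best with their own number. Alternatives were 2 other background treatments (normexp with an offset of 50, and median signal), the 75th percentile, the log2 table as deposited, a filter on dim probes, blocks for slide, slide pair and replicate number, a random block, averaging, a fit without the group not compared, trended and robust eBayes, no fold threshold, averaging over all probes of a gene, and omission of each array in turn. The replicate block with only TTX and CTL was added after seeing the data, as were probe ratios from signals before normalization. The pairs of slides were known from an earlier analysis.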

Additional observations from a re-analysis of the deposited data

Results flagged for a closer look

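For each of the 33 genes and 3 groups, the highest and the lowest array were compared with the other 3. In 6 of the 99 groups of 4 arrays 1 array stood apart from the rest (Dixon's test at the 95% level), where chance flags about 1 in 20 groups. On the CTL arrays, Grip1 was at 10.599 in replicate 3 with the others at 10.972 to 11.035, Kalrn was at 9.676 in replicate 3 with the others at 10.182 to 10.251, and Magi2 was at 8.022 in replicate 1 with the others at 7.741 to 7.759. On the TTX arrays, replicate 3 was low for Dlgap4, at 13.039 with the others at 13.125 to 13.132, and for Sipa1l1, at 13.604 with the others at 13.759 to 13.780. On the BC arrays, Nlgn2 was at 8.625 in replicate 3 with the others at 8.474 to 8.495. None of these 6 genes was called against CTL.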

How the results depend on the processing

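No called value changed direction in any alternative. The 2 TTX calls, Akap5 and Lin7b, and the 5 calls between TTX and BC held under each alternative run. With all probes of a gene averaged, Grip1 was called as well between TTX and BC (−0.725, limma adjusted p = 0.000194). The 5 members called with BC became 3 with normexp, with the median signal, with 75th percentile scaling and with the deposited log2 values. In these, Dlgap2 and Lin7b fell short of the fold threshold. When the arrays of a slide pair were averaged, 0 members were called with BC, and limma called 0 probes of the whole array. At an unadjusted limma p under 0.05, that averaging gave 10 members (30.3%), 14 related genes (29.2%) and 7838 brightest probes (21.9%) with BC. Without the fold threshold, 7 members passed with TTX and 11 between TTX and BC. Leaving out 1 array gave 2 to 3 members with TTX, 3 to 5 with BC and 5 to 6 between TTX and BC. Of the related synaptic genes, 5 were called with TTX. They became 3 with normexp, with the median signal and with the deposited values, and 2 after averaging. The 4 related genes called with BC became 0 after averaging. Without the fold threshold, 9 of the 48 passed with each treatment, where 9.72% of all names passed with TTX and 8.09% with BC. Leaving out 1 array gave 4 to 5 related genes with TTX and 4 to 6 with BC. With the replicate block, 2 members were called with TTX (2 also with only TTX and CTL fitted), 4 with BC, where Dlgap3 was lost (limma adjusted p = 0.0682), and 5 between TTX and BC, and it changed no other call.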
